A study of Homo sapiens with 6 samples.

Results

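The acute phase and complement genes described here are the serum amyloid A genes SAA1, SAA2 and SAA4, the lipocalin gene LCN2, the complement genes C3, CFB, C1R and C1S, and the long pentraxin gene PTX3. They are 9 of the 52401 genes in the authors' deposited table of means and were taken by symbol. The choice was made with their difference between the lines in view, so the values of that difference are a description and carry no test. All 9 had a mean normalized read count of at least 10 over the libraries and an adjusted p in the authors' deposited table of means, so no member was lost to a filter on low values.

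RNA was sequenced from derivatives of MCF10A, a non-tumorigenic immortalised line of human mammary epithelial cells. The mCherry line (MCF10AmCherry, 3 libraries) received 1 retroviral vector for the fluorescent protein mCherry and was selected with puromycin. The flotillin line (MCF10AF1F2, 3 libraries) received a vector for flotillin-1 with an HA tag and a vector for flotillin-2 fused to mCherry, and was selected with puromycin and hygromycin. Both lines grew in the same DMEM/F-12 medium with horse serum, insulin, EGF, hydrocortisone (a glucocorticoid) and cholera toxin. Flotillins are membrane scaffold proteins, and the comparison asks how transcription differs when both are present in excess. Each condition is 1 stable line, so the flotillin level, the number of vectors, the hygromycin selection and the history of the line cannot be told apart. Whether the libraries of a line are separate cultures is not stated in the labels, and the p-values then cover only the variation among these samples, possibly technical.

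Acute phase proteins are secreted proteins whose synthesis changes during inflammation, mostly in the liver but also in epithelia. Their genes respond to IL-6 through STAT3, to IL-1 and TNF through NF-kB, and to C/EBP transcription factors, often in combination. Complement is a cascade of plasma and locally made proteins: the classical pathway begins with the proteases C1r and C1s, the alternative pathway uses factor B, and both lead to cleavage of C3. In the mammary gland, serum amyloid A and lipocalin 2 are known from inflammation and from involution after lactation.

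SAA1 and SAA2 are near-identical copies, so reads can be shared between them. Their coding sequences in GENCODE 29 (GRCh38, chromosome 11) have 369 bases each, differ at 11 of them (97.0% identity) and share an uninterrupted run of 186 identical bases. SAA4 aligned to SAA1 at 74.0% identity with a longest shared run of 18 bases. The stretch from coding base 221 to 330, counted from 1 at the start codon, is shown because it holds 10 of the 11 differences, which are in capitals; the remaining one is at base 43. The run of 186 identical bases lies between base 43 and the first of these capitals, mostly outside the stretch shown. Reads lying within it could be counted for either gene, so the separate values of SAA1 and SAA2 are uncertain.
SAA1: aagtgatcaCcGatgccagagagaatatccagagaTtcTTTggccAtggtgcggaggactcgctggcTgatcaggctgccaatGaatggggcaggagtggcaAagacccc
SAA2: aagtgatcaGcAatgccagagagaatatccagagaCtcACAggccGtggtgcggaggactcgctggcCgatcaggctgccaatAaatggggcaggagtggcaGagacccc

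Promoter windows of 300 bases, from 250 before to 50 after the start site (RefSeq, GRCh38.p14), matched 5 of the 9 genes by symbol and gave 6 windows, since C1R has a pair of start sites. LCN2, CFB and PTX3 are printed because they hold a match to the NF-kB consensus while differing between the lines in size or direction. Capitals mark the motif letters found on either strand. The motifs were the NF-kB consensus, TTNNGNAAT (of the C/EBP type), TTCNNNGAA (of the STAT type) and TATAAA, and they were chosen with the sequences in view.
LCN2, chr9:128149203-128149502, plus strand: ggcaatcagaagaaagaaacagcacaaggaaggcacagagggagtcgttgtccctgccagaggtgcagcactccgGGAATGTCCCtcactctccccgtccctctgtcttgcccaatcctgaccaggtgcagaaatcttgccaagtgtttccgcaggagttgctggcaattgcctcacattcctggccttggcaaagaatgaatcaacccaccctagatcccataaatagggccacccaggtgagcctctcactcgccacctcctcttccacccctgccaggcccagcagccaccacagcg
CFB, chr6:31945845-31946144, plus strand: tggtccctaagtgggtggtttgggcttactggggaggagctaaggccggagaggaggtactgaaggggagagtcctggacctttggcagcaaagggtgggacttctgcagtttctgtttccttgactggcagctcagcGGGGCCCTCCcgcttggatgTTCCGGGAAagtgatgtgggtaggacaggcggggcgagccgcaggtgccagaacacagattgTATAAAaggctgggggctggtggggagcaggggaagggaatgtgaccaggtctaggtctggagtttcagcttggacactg
PTX3, chr3:157436600-157436899, plus strand: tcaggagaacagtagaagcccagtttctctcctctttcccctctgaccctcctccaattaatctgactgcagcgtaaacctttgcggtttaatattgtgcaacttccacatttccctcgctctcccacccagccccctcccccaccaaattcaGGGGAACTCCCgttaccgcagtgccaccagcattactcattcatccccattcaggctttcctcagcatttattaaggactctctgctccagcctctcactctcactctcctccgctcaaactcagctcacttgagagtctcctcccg

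The LCN2 match to the NF-kB consensus, GGAATGTCCC on the plus strand and read on the minus strand, begins at base -175 from the start site. CFB held GGGGCCCTCC at -112, TTCCGGGAA at -92 and TATAAA at -30. PTX3 held overlapping matches, GGGGAACTCC at -97 and GGGAACTCCC at -96, the latter a match on both strands. C1R held TTCCTGGAA at -86 in one window and ATTTCAAAA at -152 in the other, and SAA4 held ATTACCCAA at -106; these matches to the STAT type and, on the minus strand, the C/EBP type are named without their windows. The NF-kB consensus was found in 3 of the 6 windows and in 11.3% of 35116 promoters of this length. TTNNGNAAT was found in 2 of 6 windows against 11.0% of promoters, TTCNNNGAA in 2 of 6 against 7.66%, and TATAAA in 1 of 6 against 11.5%. A match describes the letters in these windows and is not a measured binding site.

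Values per library below are size-factor-normalized read counts. They were recovered from the authors' group means, as the processing account explains, for every gene here except C3, and libraries are numbered 1 to 3 within a line by falling size factor because the recovered reads carry no replicate number from the labels. Reads in genes with recovered counts ran from 18575584 to 19736570 per library. FLOT1 was at 1166 to 1898 in the mCherry libraries and 14137 to 18932 in the flotillin libraries, and the mean of FLOT2 was 3727 against 41052, so both targeted genes followed the labels. Library 3 stood apart in both lines: 12 cell cycle genes, a list chosen after the data were seen, were all higher there than in libraries 1 and 2, at a median of 5.79 times their mean in the mCherry line and 3.90 times in the flotillin line. Marker lists were read for other cell types. All 9 mammary epithelial markers were above 0, with summed counts of 40485 to 80069 in the mCherry and 29919 to 45877 in the flotillin libraries without KRT5, which had no recovered reads. With KRT5 (means 48381 and 67351) the summed group means were 106586 and 103701. In the authors' deposited table of means 5 of these 9 fell, CDH1 (17575 against 78.8), EPCAM (4607 against 81.0), TP63, KRT14 and KRT17, while KRT8 (2043 against 3494) and KRT6A (12744 against 26667) were not called there but were called higher in the Tuxedo table. Of 7 hepatocyte markers only CPS1 reached a mean of 10, ALB, TTR, APOA1 and APOB were each at 2.35 or less, and APOH was at 0. Of 9 macrophage and leukocyte markers 5 were above 0, with sums of 1019 to 3126 and 1243 to 1836, while AIF1, CD163, MRC1 and TYROBP were at 0. CD14 (743 against 118) and CSF1R (344 against 88.9) fell, and CD68 (753 against 1309) was not called. Of 9 fibroblast markers 8 were above 0 (THY1 at 0), with sums of 553 to 1184 and 494 to 1939 without DCN. Of the 6 tested, DCN (4659 against 42467), LUM and PDGFRB rose, COL1A1 (268 against 87.7) fell, and 2 were not called. The part of these shifts in the results below was not tested, and in bulk RNA fewer cells of a type and less RNA per cell cannot be told apart.

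Of the 9 genes, the authors' deposited table of means calls 6 at an adjusted p under 0.05: SAA1, SAA2, SAA4, LCN2 and C1R lower and PTX3 higher in the flotillin line. Over all 19733 genes tested there, 23.6% were called, 12% lower and 11.6% higher. The second deposited table, from the Tuxedo pipeline, also calls 6 members, 5 lower and 1 higher, with CFB in place of LCN2; its background is 17% of 16996 genes, 10.0% lower and 6.94% higher. C3 and C1S are called in neither table. Nothing is read from these counts, because the genes were chosen on the same contrast.

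**Figure D1:**
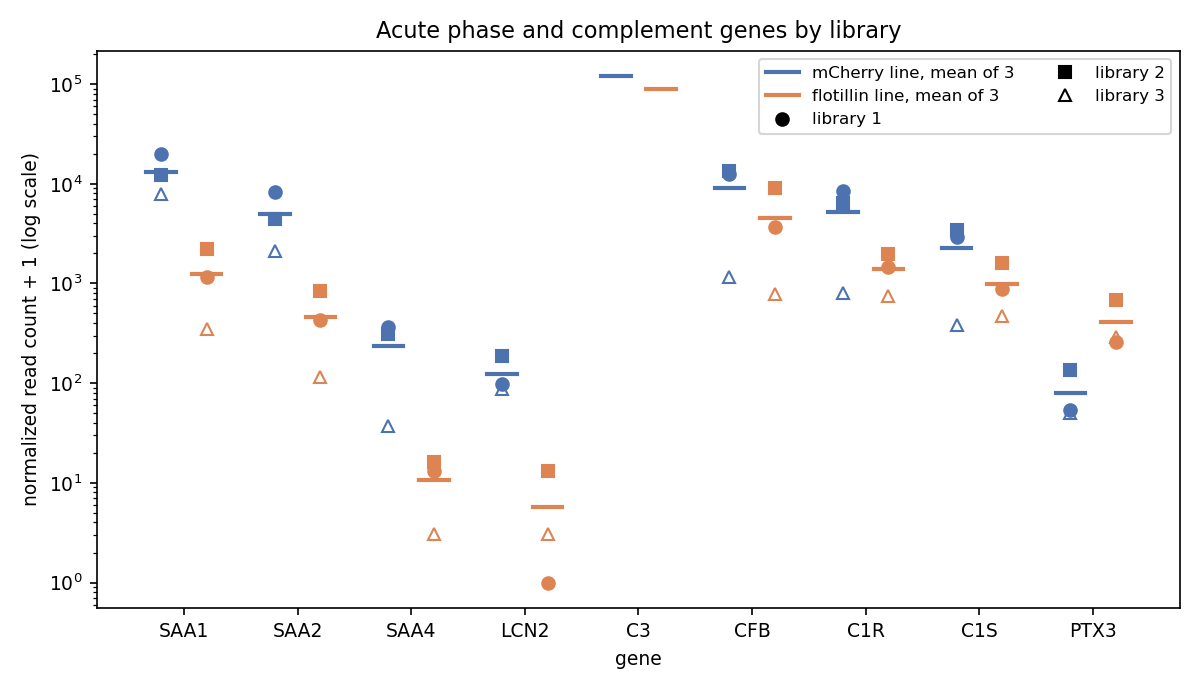
Normalized read counts plus 1 (log axis) of the 9 genes, 1 point per library and a bar at the mean of 3 libraries, for the mCherry line (blue) and the flotillin line (orange). SAA1, SAA2, SAA4 and LCN2 lie lower in every flotillin library than in any mCherry library, PTX3 lies higher, CFB, C1R and C1S overlap, and C3 has group means only.

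SAA1 (ENSG00000173432, chromosome 11, 18287772 to 18291526, GRCh37) encodes a major inducible serum amyloid A, an apolipoprotein of high-density lipoprotein. Its normalized counts were 19663, 12205 and 7945 in mCherry libraries 1 to 3 and 1158, 2230 and 345 in flotillin libraries 1 to 3. Every flotillin library was below every mCherry library, with library 3 the lowest in each line. The means were 13271 ± 5932 and 1245 ± 945 (SD, n = 3 libraries, as for every mean ± SD below), a level 10.7-fold lower in the flotillin line. The authors' deposited table of means gives a log2 fold change of -2.95, and the Tuxedo table, also deposited by the authors, gives 1397 and 125 FPKM and -3.48. Without flotillin library 2 the log2 ratio of the means (each plus 1) moved from -3.41 to -4.14.

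SAA2 (ENSG00000134339, chromosome 11, 18260590 to 18270182) encodes the other inducible serum amyloid A. It was counted at 8275, 4438 and 2098 in the mCherry libraries and at 429, 836 and 113 in the flotillin libraries. The groups again did not overlap, and the order of the libraries was that of SAA1 in both lines. Its mean went from 4937 ± 3118 to 459 ± 362, also a 10.7-fold lower level, with a log2 fold change of -2.87 in the authors' deposited table of means. The log2 ratio was -3.42 with all libraries, -4.18 without flotillin library 2 and -2.83 without mCherry library 1. On the per-length scale SAA2 was at 481 and 44.1 FPKM in the authors' deposited Tuxedo table, below SAA1 in both lines.

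The ratio of SAA1 to SAA2 counts was 2.38, 2.75 and 3.79 in the mCherry libraries and 2.70, 2.67 and 3.05 in the flotillin libraries. The flotillin values lie inside the mCherry range. Both genes thus differed by a similar factor between the lines, a statement limited by the reads they can share.

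SAA4 (ENSG00000148965, chromosome 11, 18252904 to 18258355) encodes the serum amyloid A that is known as constitutive in the liver. Its counts were 362, 309 and 36.5 in the mCherry line and 12, 15.2 and 2.06 in the flotillin line. Even mCherry library 3, far below the other two, stayed above all flotillin libraries. The means were 236 ± 175 and 9.75 ± 6.85, which is 24.2-fold lower, and the log2 fold change in the authors' deposited table of means was -3.56. In FPKM, from the authors' deposited Tuxedo table, SAA4 was at 19.4 and 0.746, the lowest of the serum amyloid A genes in both lines.

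LCN2 (ENSG00000148346, chromosome 9, 130911350 to 130915734) encodes lipocalin 2, a secreted protein that binds bacterial siderophores and so withholds iron. Its counts were 96.8, 187 and 86.9 in the mCherry libraries, and 0, 12.2 and 2.06 in the flotillin libraries, from 0, 12 and 2 reads. All flotillin values were below all mCherry values, but most flotillin reads were in library 2. The means were 124 ± 55.4 and 4.74 ± 6.51, or 26.1-fold lower. The log2 ratio was -4.44 with all libraries and -5.94 without flotillin library 2. LCN2 was at 10.8 and 0.352 FPKM in the authors' deposited Tuxedo table, which does not call it.

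C3 (ENSG00000125730, chromosome 19, 6677846 to 6737633) encodes the central protein of complement, cleaved by all activation routes. It was the most abundant of the 9 genes, at 3075 and 2011 FPKM in the authors' deposited Tuxedo table, rank 28 of all genes in the mCherry line and 63 in the flotillin line. Its mean normalized count in the authors' deposited table of means was 120285 and 88806, a 1.35-fold lower level that this table does not call (log2 fold change -0.39). The FPKM differed 1.53-fold in the same direction (-0.61 in the authors' deposited Tuxedo table), also without a call. No library values could be recovered for C3, so its spread is unknown here.

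CFB (ENSG00000243649, within chromosome 6, 31865562 to 31919861, a locus the file joins with C2) encodes factor B, the serine protease precursor that joins C3b in the alternative pathway convertase. The symbol has 7 rows, of which 6 were at 0 in both lines. CFB was counted at 12536, 13377 and 1172 in the mCherry libraries and at 3651, 9045 and 778 in the flotillin libraries. Flotillin libraries 1 and 2 lay between mCherry library 3 and mCherry libraries 1 and 2, so the groups overlap. The means, 9028 ± 6817 and 4491 ± 4197, differed 2.01-fold, while the highest library was 11.4 times the lowest in the mCherry line and 11.6 times in the flotillin line. The log2 fold change was -0.60 in the authors' deposited table of means, without a call, and -1.28 in the authors' deposited Tuxedo table, with one (391 and 161 FPKM). The log2 ratio of the means was -1.01 with all libraries and -2.03 without flotillin library 2.

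C1R (ENSG00000159403, chromosome 12, 7187836 to 7244412) encodes the protease that autoactivates in the C1 complex and then cleaves C1s. Its counts were 8387, 6437 and 802 in the mCherry line and 1452, 1975 and 745 in the flotillin line. The 3 flotillin libraries and mCherry library 3 share a range well below mCherry libraries 1 and 2. The means were 5208 ± 3939 and 1391 ± 617, a 3.74-fold lower level, with a log2 fold change of -1.58 in the authors' deposited table of means. The authors' deposited Tuxedo table gives 113 and 29.9 FPKM.

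C1S (ENSG00000182326, within chromosome 12, 7080087 to 7178336, a locus joined with other genes) encodes the C1 protease that cleaves C4 and C2. It was at 2921, 3447 and 381 in the mCherry libraries and at 883, 1590 and 469 in the flotillin libraries. Here mCherry library 3 was the lowest of all 6. The means were 2250 ± 1639 and 981 ± 567, a 2.29-fold lower level. The authors' deposited table of means gives a log2 fold change of -0.99 and the authors' deposited Tuxedo table gives -1.62 (69.5 and 22.5 FPKM), neither with a call. The ratio of C1R to C1S counts, which is not per length, ran from 1.87 to 2.87 in the mCherry libraries and was 1.64, 1.24 and 1.59 in the flotillin libraries. All 3 flotillin ratios were below all 3 mCherry ratios.

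PTX3 (ENSG00000163661, within chromosome 3, 156893012 to 157251408, a locus joined with VEPH1) encodes a long pentraxin, a soluble pattern recognition protein that binds C1q. It was the only one of the 9 genes with a higher level in the flotillin line. Its counts were 53.1, 134 and 49.4 in the mCherry libraries and 257, 688 and 290 in the flotillin libraries. The groups did not overlap, and library 2 was the highest in each line. The means were 78.8 ± 47.8 and 412 ± 240, a 5.22-fold higher level, with a log2 fold change of 2.12 in the authors' deposited table of means and 1.68 and 8.34 FPKM in the authors' deposited Tuxedo table. The log2 ratio was 2.37 with all libraries, 2.98 without mCherry library 2 and 1.78 without flotillin library 2.

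By FPKM in the authors' deposited Tuxedo table, the order in the mCherry line was C3, SAA1, SAA2, CFB, C1R, C1S, SAA4, LCN2 and PTX3. In the flotillin line it was C3, CFB, SAA1, SAA2, C1R, C1S, PTX3, SAA4 and LCN2. SAA1 moved from rank 65 to rank 977 among all genes and SAA2 from rank 238 to rank 2710. PTX3 went from rank 13654 to rank 8436 and LCN2 from rank 7866 to rank 16666. The FPKM are group values without a spread, so neighbours in these orders were not separated by a test.

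Library 3 was the lowest library in both lines for 6 of the 8 members with library values, all but LCN2 and PTX3. This held for 24.7% of 15904 genes with a mean of at least 10. Among 106 such genes in the pathway lists described below it held for 50.9%, so it was not particular to the members. By list the share ran from 16.7% (other acute phase and pentraxin genes) to 85.7% (complement regulators), with 77.8% for other complement components. In a further count, 6 members (SAA1, SAA2, SAA4, CFB, C1R and C1S) were below 0.5 times the mean of libraries 1 and 2 in library 3 of both lines, against 4.37% of genes. This too was not particular to the members. In the mCherry and flotillin lines CLU was at 0.33 and 0.39 times, FPR1 at 0.22 and 0.44, and S100A8 at 0.26 and 0.17. Other list genes were not below 0.5, such as CD55 (0.73 and 1.02) and STAT3 (0.79 and 0.61). No share over the pathway lists was counted at this threshold. Among the members, CFB showed the widest gap in both lines. The mean of libraries 1 and 2 was 11.1 times library 3 in the mCherry line and 8.16 times in the flotillin line. The corresponding factors were 9.25 and 2.30 for C1R, 8.36 and 2.64 for C1S, and 9.19 and 6.61 for SAA4. For SAA1 they were 2.01 and 4.90, and for SAA2 3.03 and 5.59. The gap was thus wider in the mCherry line for the C1 proteases and wider in the flotillin line for SAA1 and SAA2, a difference that was not tested.

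**Figure D2:**
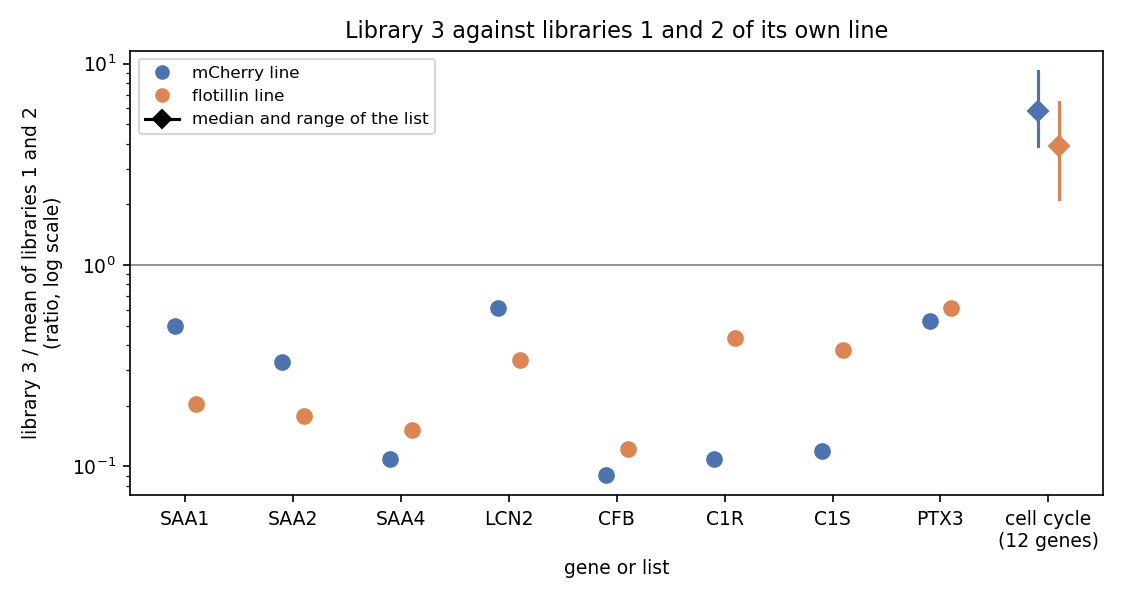
Library 3 of each line divided by the mean of libraries 1 and 2 of the same line (log axis), for the 8 members with library values, 1 point per line, and for 12 cell cycle genes as the median with the range. All 16 member points lie below the line at 1, while the cell cycle medians are 5.79 (mCherry line) and 3.90 (flotillin line).

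The members also varied more within a line than most genes with a mean of at least 100 did. The within-line SD of log2(normalized count + 1) was 1.90 for CFB, 1.59 for SAA4, 1.41 for C1R, 1.40 for C1S, 1.38 for LCN2, 1.25 for SAA2, 1.07 for SAA1 and 0.78 for PTX3. The median over genes was 0.29, and between 93.1% (PTX3) and 99.5% (CFB) of genes had a smaller SD. LCN2 itself had a mean under 100, outside the set it was ranked against. Few reads in the flotillin libraries limit the SDs of LCN2 (0, 12 and 2 reads) and SAA4 (12, 15 and 2 reads). Cell cycle genes moved the opposite way in library 3, as given above; their part in this spread was not tested.

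Leaving library 3 out of both lines, an alternative chosen after the data were seen, kept the direction of all 8 members. The lower level in the flotillin line was then 9.41-fold for SAA1, 10.0-fold for SAA2, 24.7-fold for SAA4, 23.4-fold for LCN2, 2.04-fold for CFB, 4.33-fold for C1R and 2.58-fold for C1S, and PTX3 was 5.05-fold higher. With all libraries, 4 of the 8 lay lower without overlap (21.1% of genes did) and 1 higher (24.2% of genes). Without library 3, 7 of the 8 lay lower without overlap, beside 36.2% of genes. The limma fit across all genes called 5 members with all libraries, not CFB, C1R or C1S (23.4% of genes were called), 7 without library 3, all but CFB (44.2%), and 7 with a term for library 3, all but C1S (46.0%). The term for library 3 was also chosen after the data were seen. As above, these counts of members rest on the contrast the genes were chosen on.

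**Figure D3:**
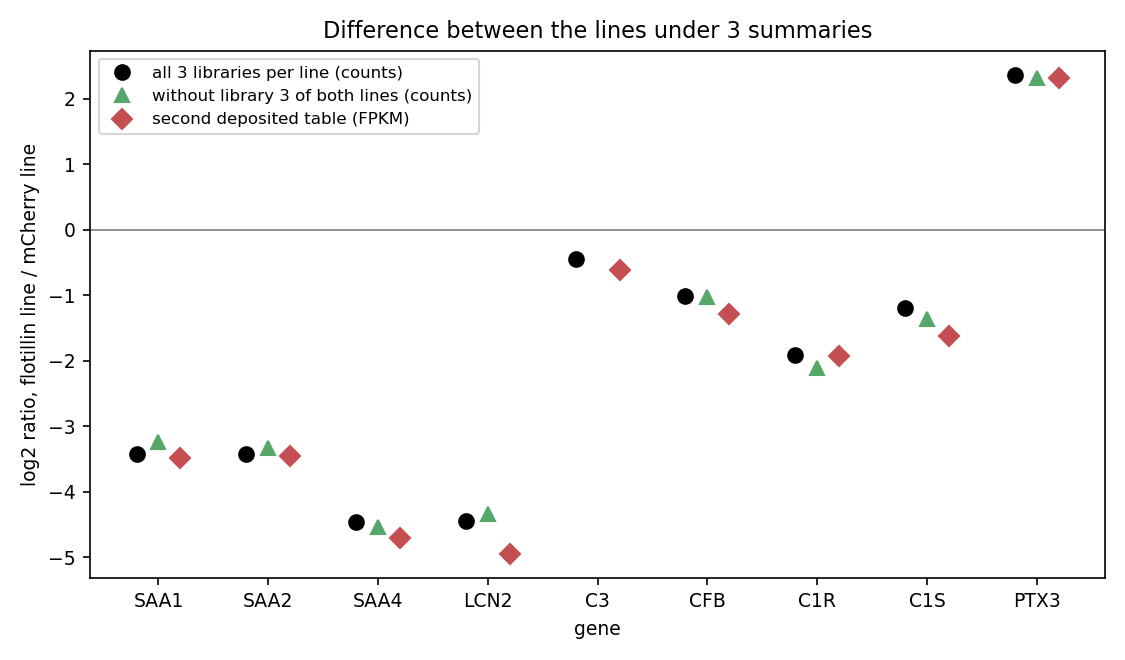
Log2 ratio of the flotillin to the mCherry line for each member, from all 3 libraries per line (black circles), without library 3 of both lines (green triangles) and from the FPKM of the second deposited table (red diamonds). The signs are the same in every summary shown, PTX3 alone is above 0, and C3 has no value without library 3.

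Among 11370 genes with a mean of at least 100, those whose log2 profile over the 6 libraries lay nearest to SAA1 were UNC5B (a netrin receptor), SAA2, SYT8, S100A9 (a calprotectin subunit) and AL356017.1. Their root-mean-square distances were 0.19, 0.21, 0.31, 0.33 and 0.34 log2 units after centring. Measured the same way, SAA4 was at rank 57 from SAA1, C1R at 477, CFB at 1130, C1S at 1160 and PTX3 at 11230. Nearest to C1S were TNFAIP3 (the NF-kB inhibitor A20), BCL6, EFNB3, PIK3IP1 and OVGP1, at 0.25 to 0.31. From C1S, C1R was at rank 9, CFB at 64, SAA2 at 8886, SAA1 at 9599, SAA4 at 10274 and PTX3 at 10621. LCN2 was below the minimum and was not ranked. All points share the same libraries, so the distances are a description.

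Of 53 neighbouring genes within 100 kb of a member's locus with a mean of at least 10, 3 rose and 11 fell in the authors' deposited table of means, beside 11.6% higher and 12% lower over all genes tested. Beside the serum amyloid A genes, HPS5 was at 1505 and 1908 without a call, GTF2H1 (a TFIIH subunit) rose from 1066 to 1634, and MRGPRX3 fell from 24.1 to 6.12. Near C3, CD70 and SH2D3A fell, while GPR108, in the same joined locus, was at 3263 and 2103 without a call. C2, in the locus of CFB and its paralogue in the classical pathway, was at 15.3 ± 7.40 and 11.1 ± 7.14 without a call, and NEU1 fell. C1RL, beside C1R, was at 2127 and 2215 without a call. The other genes called there were SPSB2 and C12orf57, which rose, and U47924.1, RBP5 and AC233309.1, which fell. DNM1 and RP11-395P17.3 near LCN2 and CCNL1 and a Y_RNA gene near PTX3 fell, and VEPH1, in the locus of PTX3, was at 32.5 and 35.2 without a call. Of the called neighbours, the authors' deposited Tuxedo table does not call GTF2H1, SPSB2, DNM1, NEU1, U47924.1, AC233309.1, CCNL1 and the Y_RNA gene. The limma fit of all libraries did not call RP11-395P17.3, NEU1 and AC233309.1.

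The surrounding pathways were read from 10 lists with 132 tested genes, of which 11 rose and 27 fell in the authors' deposited table of means, with a median log2 fold change of -0.26 (all genes: 2298 rose and 2363 fell of 19733, median -0.04). The values that follow are mean normalized counts in the mCherry and the flotillin line. Of 11 other complement components 1 rose, the terminal component gene C6, from 0.954 ± 0.956 to 16.1 ± 15.3 (0 in library 3 of both lines), and none fell (list median -0.37). C5 was at 220 ± 61.0 and 377 ± 70.4, C4A at 10.5 ± 5.19 and 10.1 ± 4.50, and C4B at 14.0 ± 7.89 and 9.12 ± 7.91, none of them called (C5 was lower in the flotillin line in the authors' deposited Tuxedo table, at 6.26 and 4.26 FPKM); C4A and C4B are near-identical and their split is uncertain. Per length, C4A was at 0.179 and 0.0826 FPKM and C2 at 0.637 and 0.610 FPKM in the authors' deposited Tuxedo table, below C1R and C1S in both lines. Of 12 complement regulators 1 fell, CD55 (decay accelerating factor), from 5369 ± 980 to 3036 ± 156 (list median -0.14). CFI, which cleaves C3b, was at 1042 ± 286 and 651 ± 77.2, CLU at 3030 ± 1785 and 1697 ± 775, and SERPING1, the inhibitor of C1r and C1s, at 38.5 ± 27.4 and 45.8 ± 18.4, without a call in the table of means. The authors' deposited Tuxedo table calls CFI lower, and SERPING1 has the opposite sign there, without a call. CD46 had means of 35802 and 20745, also without a call. CD59 was recovered at 0 in flotillin library 3 while its other libraries were at 17996 or more, so its mean is uncertain. The authors' deposited Tuxedo table has CD59 at 99.4 and 117 FPKM, without a call. Of 7 complement receptor genes ITGB2 rose from 416 ± 65.7 to 978 ± 136, and ITGAM (27.1 ± 33.3 to 1.35 ± 2.34) and CR2 (38.2 ± 1.47 to 11.1 ± 4.58) fell (median 0.12).

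**Figure D4:**
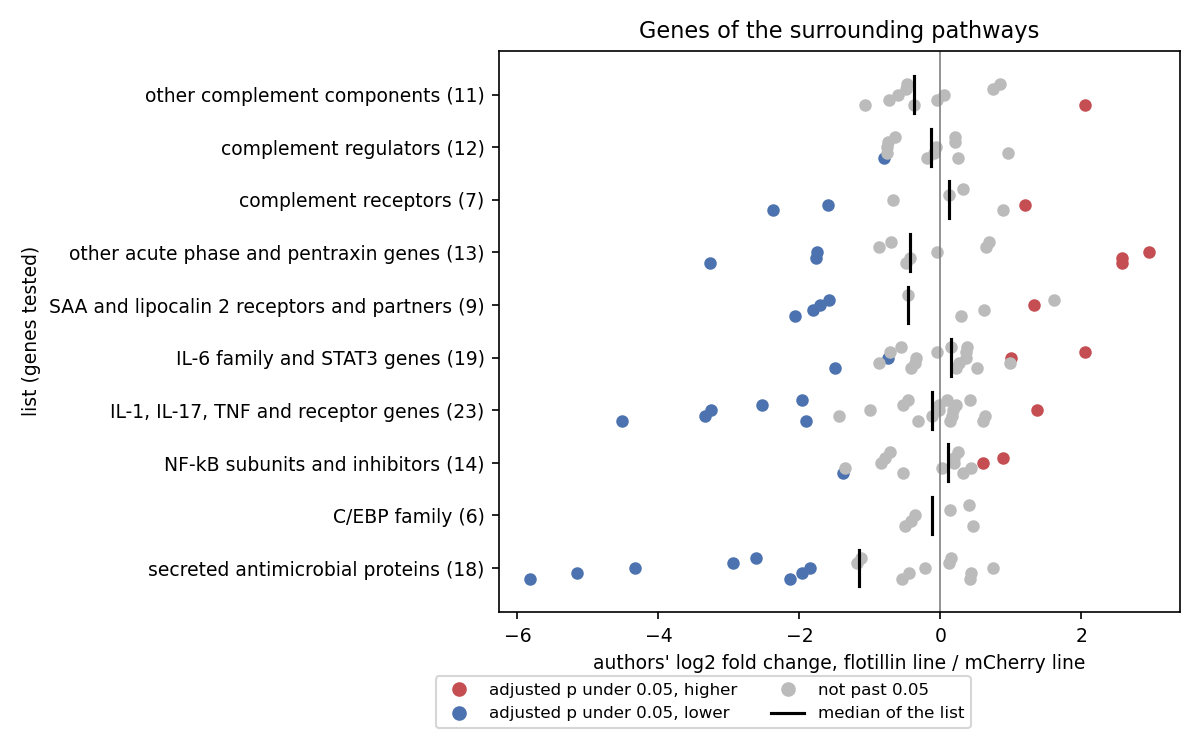
The authors' log2 fold change (flotillin over mCherry line) of each tested gene in 10 pathway lists, 1 point per gene, red where higher and blue where lower at an adjusted p under 0.05, grey otherwise, with a bar at the list's median. Called genes lie on both sides in most lists, and in the list of secreted antimicrobial proteins all 8 called genes are lower.

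Of 13 other acute phase and pentraxin genes 3 rose and 3 fell (median -0.43). Those that rose were CRP, the short pentraxin, from 1.92 ± 1.65 to 27.6 ± 9.22, NPTXR from 27.9 ± 5.63 to 183 ± 29.5 and ITIH4 from 1.59 ± 1.97 to 18.9 ± 4.83. CRP and NPTXR, like PTX3, encode pentraxin-domain proteins. LRG1 fell from 223 ± 109 to 17.2 ± 9.96, the protease inhibitor gene SERPINA1 from 6056 ± 2912 to 1629 ± 134, and SERPINA3 from 35564 to 8107. Of 9 receptors and partners of serum amyloid A and lipocalin 2, FPR1 rose (748 ± 454 to 2135 ± 875) and AGER (513 ± 214 to 144 ± 37.1), CD36 (46.8 ± 40.6 to 9.12 ± 2.66), P2RX7 (45.2 ± 30.2 to 11.8 ± 4.41) and MMP9 fell (median -0.45). MMP9, whose protein binds lipocalin 2, was at 5.85 ± 5.28 and had no read in the flotillin line, at least 5.77-fold lower against a floor of 3 reads over the group.

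Among upstream genes, 2 of 19 in the IL-6 and STAT3 list rose and 2 fell (median 0.15). IL6 rose from 6.14 ± 4.57 to 36.4 ± 18.7, while LIF fell from 707 ± 195 to 239 ± 41.7 and OSMR from 12994 ± 3537 to 7618 ± 729. STAT3 itself was at 5441 ± 725 and 7101 ± 2108 and SOCS3 at 165 ± 99.1 and 196 ± 83.4, without a call. In the IL-1, IL-17 and TNF list 1 of 23 rose, the receptor gene IL1R1 (1854 ± 1107 to 5275 ± 1057), and 6 fell (median -0.12). IL1A fell from 1495 ± 632 to 126 ± 26.9, IL1B from 477 ± 99.0 to 40.1 ± 27.7, the antagonist gene IL1RN from 170 ± 206 to 1.68 ± 0.569, and TNF from 8.62 ± 6.87 to no read, at least 8.50-fold lower. Of 14 NF-kB genes IKBKG (264 ± 22.7 to 499 ± 85.9) and RELA (971 ± 157 to 1497 ± 144) rose and IKBKB (6792 ± 3688 to 2392 ± 532) fell (median 0.11), with NFKB1 at 1907 ± 221 and 2405 ± 277 without a call. None of 6 C/EBP genes was called (median -0.11): CEBPB was at 1084 ± 295 and 1514 ± 335, and CEBPD at 466 ± 195 and 319 ± 120. Of 18 secreted antimicrobial proteins, the class of LCN2, none rose and 8 fell (median -1.15), among them PI3 (elafin) from 1342 ± 1218 to 16.6 ± 4.20, S100A8 from 5048 ± 2996 to 424 ± 376, S100A7 from 45.8 ± 24.8 to 0.333 ± 0.577, and RNASE7 from 99.8 ± 23.6 to no read, at least 98.5-fold lower. The limma fit of all libraries did not keep the calls of ITGAM, FPR1, CD36, P2RX7, OSMR and IKBKB, each of which was called without library 3 of both lines; C6, SERPINA3, MMP9 and TNF were not fitted. The authors' deposited Tuxedo table tested CR2, ITIH4, LIF, IKBKG, RELA, IKBKB and S100A7 without calling them, and did not test C6, ITGAM, MMP9 and TNF. Over the 10 lists that fit called 9 genes higher and 17 lower, and 13 and 35 without library 3 of both lines.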

How the data were processed

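The authors deposited 2 tables of one comparison. The first has 52401 genes, of which 52313 were also found in the second. The first holds signal columns, the group means of size-factor-normalized read counts, as their values show, with the authors' log2 fold changes, p-values and adjusted p-values, per the file headers. The second (Tuxedo) holds FPKM per group and, again per the file headers, the authors' log2 ratio, a test score and q-values. The submitters' processing notes name GRCh37, bcl2fastq, HISAT2 (2.1.0), HTSeq (0.9.1) and DESeq2 (1.18.1) among the authors' tools, with no roles given. Neither the annotation release nor the strand setting is given in the sources used here. Positions are the second table's loci in GRCh37, counted from 1; a locus can join genes.

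Each mean has up to 15 significant digits, so the whole reads of the 3 libraries were recovered by a search over whole numbers. A single solution was found for 99.73% (mCherry) and 99.71% (flotillin) of means above 0. The unsolved means were high and held 19.6% (mCherry) and 18.6% (flotillin) of all counts. Size factors recomputed from the recovered reads differed by at most 0.034%, and altered means had a solution in 0 and 1 of 1000 cases. Simulated means, drawn from solved genes only, were returned exactly in 1000 of 1000 cases per group. For the solved genes with the most reads this was 500 of 500 (mCherry) and 498 of 500 (flotillin). In 107 genes, C3 among them, a group remained unsolved. In 46 genes a library is at 0 while another of its group exceeds 200 reads; no member is among them. Standard deviations are over the recovered libraries. The number of reads limits the precision of low values, and no interval beyond the SD is given.

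Genes rose or fell where the authors' adjusted p was under 0.05. The alternative test was limma 3.58.1 in R 4.3.3, with p-values adjusted by Benjamini-Hochberg, fitted to log2(normalized count + 1) of 15904 genes with a mean of at least 10. On simulated data for this comparison, run on 15904 genes at a dispersion of 0.05, false calls made up 5.36% of all calls. The test found 59% of 100 genes simulated at 2-fold and 100% of 100 at 4-fold. Every simulated gene had that same dispersion, and no library was shifted as library 3 was. The members had within-line SDs of 0.78 (PTX3) to 1.90 (CFB) in log2 units, so these rates need not hold for them.

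The members and lists were chosen with earlier results of these data known. List genes were matched by symbol or by the Ensembl identifier of that symbol, since the table gives KRT18 (ENSG00000111057) another symbol. Named were all members, up to 4 called genes per list and direction by the largest fold change, a set of key pathway genes regardless of call, called neighbours, and the 5 genes nearest to SAA1 and to C1S. A few genes that this rule names are not reported here. Alternatives were other pseudocounts, scaling by total recovered reads, the second table, other windows and thresholds, and leaving out libraries.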

Additional observations from a re-analysis of the deposited data

How the results depend on the processing

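All 91 log2 ratios of members computed under the alternatives kept their sign. Leaving out 1 library at a time gave log2 ratios of -4.14 to -2.97 for SAA1, -4.18 to -2.83 for SAA2, -4.97 to -4.01 for SAA4, -5.94 to -3.94 for LCN2, -2.03 to -0.51 for CFB, -2.41 to -1.38 for C1R, -1.73 to -0.75 for C1S and 1.78 to 2.98 for PTX3. C3 was at -0.44 from the means and at -0.61 from the FPKM of the second table. Over the pathway lists, the 11 higher calls became 7 in the second table and 7 once means under 100 were dropped; limma gave 9 with all libraries and 3 to 12 with 1 left out (5, 4 and 12 without mCherry library 1, 2 or 3, and 3, 3 and 6 without flotillin library 1, 2 or 3). The 27 lower calls became 16 under that filter, 17 in limma with all libraries and 11 to 31 with 1 left out (11, 11 and 31, and 11, 14 and 15, in the same order). Without library 3 of both lines limma called 13 higher and 35 lower, and with a term for it 16 and 33. Of the neighbours, 3 higher and 11 lower calls became 8 and 18 within 250 kb, 1 and 5 at an adjusted p under 0.01, and the lower calls became 6 in the second table; the cause of these shifts was not tested. No paired analysis was possible because the deposited columns are group means, from which libraries were recovered without any number of their own. Low reads limit LCN2 and SAA4 in the flotillin line.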
